A study of Mus musculus with 4 samples.

Results

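The genes described here are 10 transcripts of mast cells and basophils, chosen by name from the 28987 genes of the deposited table: the granule proteases Cpa3, Mcpt8, Tpsb2, Cma1, Prss34 and Gzmc, the IgE receptor subunits Fcer1a and Ms4a2, the histamine-forming enzyme gene Hdc and the transcription factor gene Mitf. All 10 were found by their mouse symbol. They were measured by RNA sequencing in bone marrow cells of C57BL/6 mice enriched for c-Kit (CD117), a receptor of stem and progenitor cells, on magnetic beads. The comparison asks which transcripts differ with and without Hif1a, which encodes the HIF-1 subunit that is stabilised when oxygen is low, and here whether the difference in Cpa3 is shared by the other 9 genes. In the Hif1a-null group (2 libraries) the mice carried a partial tandem duplication of Mll on one allele, with the other allele wild type, together with Runx1 and Hif-1α floxed on both alleles and Mx1-Cre. In the Hif1a-intact group (2 libraries) the mice carried the same Mll duplication, floxed Runx1 and Mx1-Cre, and Hif-1α was not floxed. Mx1-Cre is an interferon-inducible recombinase that is not confined to blood cells. Neither the age of the mice nor the time since induction is stated, and no mouse without the Mll duplication and floxed Runx1 was included.

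Mast cells and basophils are granulocytes that arise from bone marrow progenitors and store histamine and proteases, bound to the proteoglycan serglycin, in their granules. Both carry the high-affinity IgE receptor, built of an alpha chain that binds IgE, a beta chain that amplifies the signal and gamma chains that carry it into the cell. Basophils leave the marrow mature, whereas mast cells leave it as progenitors and complete their granules in tissues. Cpa3 and Hdc are also transcribed outside these lineages in mouse marrow, Cpa3 in early progenitors and Hdc in myeloid progenitors and neutrophils.

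Values are TPM, relative transcript abundances that are scaled for transcript length and keep no read counts, so sequencing depth is unknown. Nothing in the labels ties the libraries of 1 group to separate mice, and the p-values measure the spread between these libraries alone, which may be technical. For each gene limma draws that spread toward the one typical of all tested genes, so standard errors do not rest on the gene's own values only. The level of Hif1a itself was 98.8 and 113 TPM in the Hif1a-null libraries, against 100.3 and 75.2 TPM in the Hif1a-intact libraries. A gene-level value includes exons outside the floxed part and does not check the deletion, so directions rest on the labels. Runx1, floxed in both groups, read 48.4 and 46.7 TPM in Hif1a-null libraries, against 73.6 and 76.6 TPM in Hif1a-intact libraries (log2 fold change -0.65, limma adjusted p = 0.0636, and 0.0498 among protein-coding genes alone). A difference linked to Runx1 cannot be told apart from one linked to Hif1a. Kmt2a, the gene of Mll, read 9.77 and 9.03 TPM in Hif1a-null libraries, against 9.41 and 9.96 TPM in Hif1a-intact libraries, with overlapping groups. In bulk RNA, fewer cells of a type and less RNA per cell cannot be told apart either.

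Cpa3 was far lower in the Hif1a-null libraries, and it was the only one of the 10 genes to pass the test. Cpa3 encodes carboxypeptidase A of the mast cell granule, a zinc protease that trims peptides and venom toxins. It measured 42.3 and 42.4 TPM in the Hif1a-null libraries, against 526 and 289 TPM in the Hif1a-intact libraries. The groups did not overlap, and the Hif1a-null mean was 10.4% of the Hif1a-intact mean. The 2 Hif1a-null values nearly coincided, while the Hif1a-intact libraries differed from each other by a factor of 1.82. The log2 fold change, Hif1a-null minus Hif1a-intact on the log2(TPM + 1) scale, was -3.17 with a standard error of 0.32 and a 95% interval of -4.05 to -2.30 (limma across all tested genes, Benjamini-Hochberg adjusted p = 0.0158). Only 12 of the 11909 tested genes had a lower log2 fold change. Among all genes tested 7.27% were called, 2.02% lower and 5.25% higher in the Hif1a-null libraries. The call was lost without Hif1a-null replicate 1 (log2 fold change -3.17, adjusted p = 0.125) and without Hif1a-null replicate 2 (-3.18, adjusted p = 0.143), where the spread came from the Hif1a-intact pair alone. It was also lost when no filter on low values was applied (adjusted p = 0.0572). Without Hif1a-intact replicate 1 the log2 fold change was -2.74, and without Hif1a-intact replicate 2 it was -3.60. There the spread of Cpa3 itself came from the nearly coinciding Hif1a-null pair alone, so those fits say little about its precision. The fall of Cpa3 was known when these genes were chosen, so the test is not independent evidence for it.

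Cpa3 (ENSMUSG00000001865) lies on GRCm38 chromosome 3 at 20215620 to 20242181 on the minus strand, and no annotated transcript of another gene matched it closely enough to share its reads by the criteria used. The 250 bases before the RefSeq start site (GRCm38.p6) are shown for Cpa3, which fell, and for Ms4a2 and Hdc, which were well detected and did not pass the test, so that the 3 promoters can be set side by side. They lie at chr3:20242182-20242431, chr19:11623720-11623969 and chr2:126618679-126618928, all on the minus strand. Each is written 5′ to 3′ along its gene, and capitals mark every GATA or its reverse complement TATC, the core letters bound by Gata1 and Gata2, 2 factors that are described further on.
Cpa3: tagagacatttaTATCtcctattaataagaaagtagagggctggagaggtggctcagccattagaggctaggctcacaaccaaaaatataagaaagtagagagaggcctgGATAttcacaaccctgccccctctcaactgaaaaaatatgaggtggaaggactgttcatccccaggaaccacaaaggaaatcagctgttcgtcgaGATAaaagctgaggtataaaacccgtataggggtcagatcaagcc
Ms4a2: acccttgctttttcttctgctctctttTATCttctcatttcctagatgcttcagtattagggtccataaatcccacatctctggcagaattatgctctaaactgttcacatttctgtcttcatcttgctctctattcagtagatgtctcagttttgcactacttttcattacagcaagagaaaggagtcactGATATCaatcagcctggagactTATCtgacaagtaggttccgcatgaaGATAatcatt
Hdc: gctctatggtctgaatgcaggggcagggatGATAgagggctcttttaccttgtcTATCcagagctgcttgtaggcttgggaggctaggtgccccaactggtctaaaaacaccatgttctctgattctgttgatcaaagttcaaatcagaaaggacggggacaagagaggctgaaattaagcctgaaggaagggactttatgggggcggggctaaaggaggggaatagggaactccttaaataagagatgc
The Cpa3 promoter held 3 such matches, Ms4a2 held 5, of which 2 overlap in one GATATC, and Hdc held 2. The letters are common: 53.6% of the 32851 promoter windows of the same length hold at least 1. Of the 10 genes 9 matched the promoter table, with 11 windows in all, since Mitf has several start sites, and 10 of the 11 held the letters. The core letters of the hypoxia response element, ACGTG and GCGTG on either strand, occurred in none of the 3 windows shown. ACGTG was found in 1 of the 11 windows, an upstream one of Mitf, and in 16.6% of all windows, and GCGTG in 0 of the 11 and in 28.2% of all windows. The letters TGTGGT or ACCACA, a core to which Runx1 binds, occurred 1 time in the Cpa3 window and in neither of the other windows shown. They were in 5 of the 11 windows and in 14.0% of all windows. These matches are descriptions of the letters and do not show that a factor binds.

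**Figure D1:**
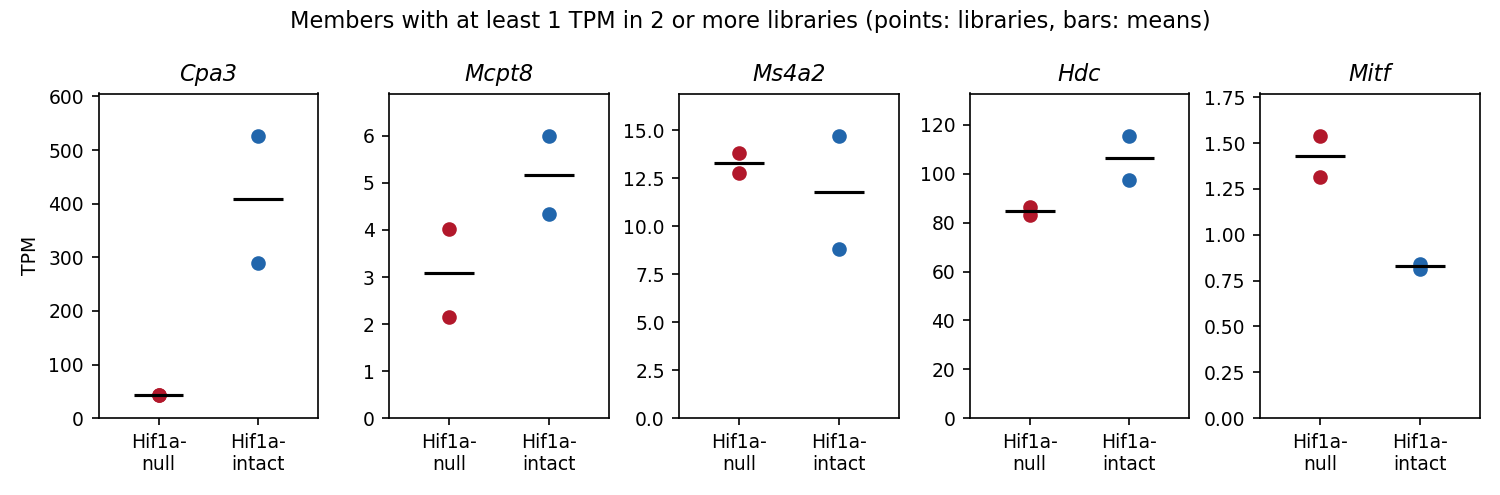
Level in TPM (vertical axes, each from 0) of the 5 genes with at least 1 TPM in 2 or more libraries, Hif1a-null at left and Hif1a-intact at right. Points are libraries and bars are group means. Cpa3 measures 42.3 and 42.4 TPM in the Hif1a-null libraries, against 526 and 289 TPM in the Hif1a-intact libraries, while Ms4a2 overlaps between the groups.

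The other 5 granule proteases gave little or no signal in either group. Mcpt8, a basophil protease of the chymase family and the one other protease that was measurable, measured 4.03 and 2.15 TPM in the Hif1a-null libraries, against 6.00 and 4.34 TPM in the Hif1a-intact libraries. Its groups did not overlap, but by a margin smaller than the difference between replicates, and 55.0% of all tested genes had groups that did not overlap (32.3% lower and 22.7% higher in the Hif1a-null libraries). It did not pass the test, with a log2 fold change of -0.62, a standard error of 0.29 and a 95% interval of -1.42 to 0.18 (limma, adjusted p = 0.310). With 1 library left out its log2 fold change ran from -0.96 without Hif1a-null replicate 1 to -0.28 without Hif1a-null replicate 2, and it was called in neither case. Tpsb2, a tryptase of mast cell granules, Cma1, the mast cell chymase, Prss34, a serine protease of basophils and mast cells, and Gzmc, a granzyme of cytotoxic lymphocytes placed in the same protease cluster, were listed at 0 in all 4 libraries. A value at or near 0 in this table may be a failed estimate, which was not tested. The ribosomal protein gene Rps12 measured 77.0 and 74.6 TPM in the Hif1a-null libraries but 6.26e-07 and 132 TPM in the Hif1a-intact libraries. It was near 0 in 1 library only, unlike the 4 proteases, which were at 0 in all 4. Rps12 was named after its values were seen. Of the 6 proteases, then, 1 was called lower, 1 was measured without a call, and 4 were listed at 0.

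Of the genes beside these proteases only 4 were tested and 0 were called, where 7.27% of all tested genes were. With so few tested, 0 calls are not read as a result about these loci. All 4 had a log2 fold change below 0, as did 57.5% of all tested genes. Mcpt8 (chromosome 14, 56082166 to 56085273), Cma1 (55941451 to 55944675) and Gzmc (56231441 to 56234656) lie in one cluster of chymases and granzymes on chromosome 14, and Tpsb2 (25366305 to 25369098) and Prss34 (25298394 to 25300165) in the tryptase cluster on chromosome 17. Of 26 neighbours of these clusters and of Cpa3, 25 were in the table, 15 were listed at 0 in all 4 libraries and 4 were tested, of which 0 were called (smallest limma adjusted p = 0.370, and 0 of the 4 under an unadjusted p of 0.05). Ctsg, which encodes cathepsin G of neutrophil granules and lies in the chromosome 14 cluster, was the abundant exception at 161 and 154 TPM in the Hif1a-null libraries, against 259 and 156 TPM in the Hif1a-intact libraries. Its groups overlapped, and its log2 fold change of -0.35 turned to 0.012 without Hif1a-intact replicate 1. On chromosome 3, Hps3, a gene of lysosome-related organelle assembly near Cpa3, read 39.6 and 33.7 TPM in Hif1a-null libraries, against 48.6 and 39.9 TPM in Hif1a-intact libraries (limma, adjusted p = 0.449). Hltf, a helicase-like gene beside it, read 15.0 and 14.1 TPM in Hif1a-null libraries, against 19.3 and 15.6 TPM in Hif1a-intact libraries, and Gyg, which encodes the glycogen primer glycogenin, read 1.04 and 1.81 TPM in Hif1a-null libraries, against 3.38 and 1.80 TPM in Hif1a-intact libraries. Cpb1, the listed gene nearest to Cpa3, was under the filter on low values and was not tested. It was listed at 0 in both Hif1a-null libraries, against 0.438 and 0.512 TPM in the Hif1a-intact libraries. Cpb1 was named after its values were seen.

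Among the IgE receptor genes the alpha chain was all but undetected while the beta and gamma chains were present in both groups. Fcer1a, the IgE-binding alpha chain, was listed at 0 in both Hif1a-null libraries, and read 0.108 TPM and 0 in the Hif1a-intact libraries. Ms4a2, the beta chain, measured 13.8 and 12.8 TPM in the Hif1a-null libraries, against 14.7 and 8.82 TPM in the Hif1a-intact libraries. Its groups overlapped, and its log2 fold change was 0.20 with a 95% interval of -0.52 to 0.93 (limma, adjusted p = 0.711), an interval that does not reach the fold change of Cpa3. Without Hif1a-intact replicate 2 its sign turned, to -0.14. Fcer1g, the gamma chain, which other Fc receptors of myeloid cells also use, measured 273 and 262 TPM in the Hif1a-null libraries, against 407 and 352 TPM in the Hif1a-intact libraries (log2 fold change -0.50, limma adjusted p = 0.143). The value of Fcer1g is given for its place in the receptor and was chosen after values were seen.

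Hdc and Mitf did not pass the test. Hdc, which encodes histidine decarboxylase, the enzyme that makes histamine, measured 83.2 and 86.3 TPM in the Hif1a-null libraries, against 97.6 and 116 TPM in the Hif1a-intact libraries. The groups did not overlap, but the log2 fold change was only -0.32, with a standard error of 0.15 and a 95% interval of -0.73 to 0.08 (limma, adjusted p = 0.296). Mitf, a factor that drives mast cell protease, Kit and histamine pathway genes, was low at 1.31 and 1.54 TPM in the Hif1a-null libraries, against 0.814 and 0.842 TPM in the Hif1a-intact libraries. Its log2 fold change was 0.41, with a 95% interval of 0.05 to 0.76 before adjustment (limma, adjusted p = 0.174). Because both Hif1a-intact libraries lay under 1 TPM, Mitf was tested only through the Hif1a-null libraries and could only come out higher. After histamine is made it is loaded into granules by the transporter of Slc18a2 and broken down by the enzyme of Hnmt, 2 genes named here for that role after values were seen. Slc18a2 measured 8.59 and 8.20 TPM in the Hif1a-null libraries, against 4.73 and 5.10 TPM in the Hif1a-intact libraries (log2 fold change 0.67, limma adjusted p = 0.0629). Hnmt read 6.74 and 7.28 TPM in Hif1a-null libraries, against 3.83 and 2.74 TPM in Hif1a-intact libraries (0.91, adjusted p = 0.0660). Hnmt was called under median-ratio rescaling (limma adjusted p = 0.0453) and without Hif1a-intact replicate 1 (0.0407), and Slc18a2 among protein-coding genes alone (0.0491), while in their other alternatives neither was called (adjusted p up to 0.564 for Hnmt and 0.634 for Slc18a2).

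**Figure D2:**
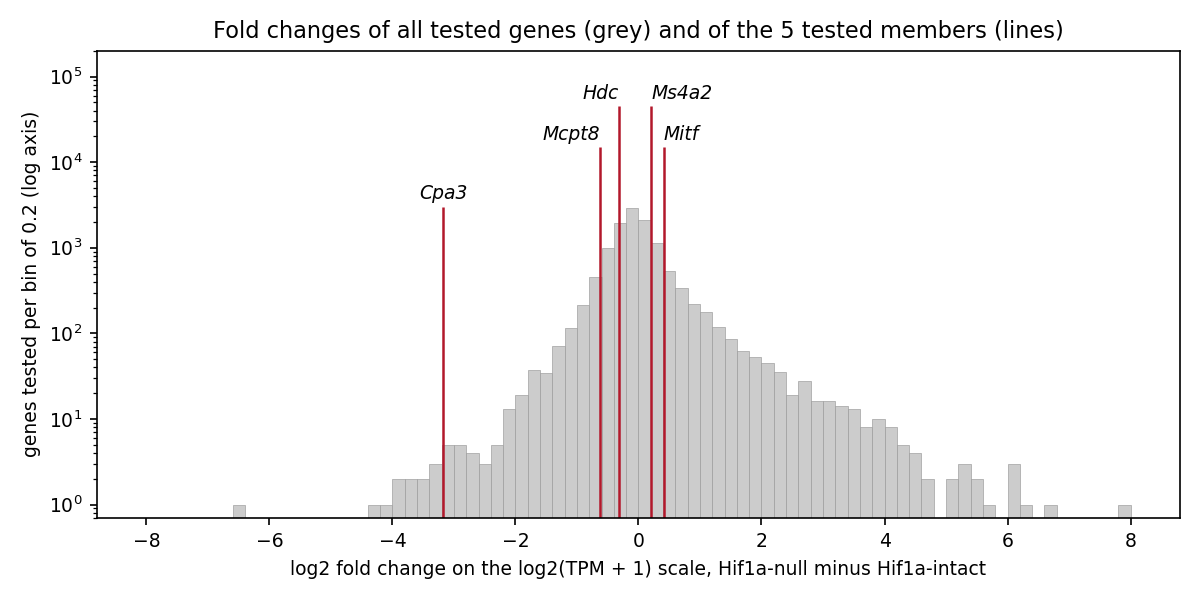
Number of tested genes (vertical log axis) per bin of log2 fold change, Hif1a-null minus Hif1a-intact, for all 11909 tested genes in grey, with red lines at the 5 tested mast cell and basophil genes. Cpa3 stands at -3.17 in the lower tail, and the other 4 lie between -0.62 and 0.41.

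Over the 10 genes, the call of Cpa3 was shared by 0 others. Of the 10, 5 passed the filter on low values. Of the 5, 1 was called lower, 0 were called higher and 4 were not called, beside 2.02% lower and 5.25% higher among all tested genes. The genes under the filter had no test and could not share the call. Mitf, tested only through the Hif1a-null libraries, could not have shared a fall either. That left Mcpt8, Hdc and Ms4a2 as genes that could. The median log2 fold change of the 5 tested genes, Mitf among them, was -0.32, beside -0.06 over all tested genes. Cpa3 was also set against other transcripts inside each library, as ratios of TPM values. The ratio of Cpa3 to Hdc was 0.509 and 0.491 in the Hif1a-null libraries, against 5.39 and 2.50 in the Hif1a-intact libraries. Cpa3 was below Hdc in both Hif1a-null libraries and above it in both Hif1a-intact libraries. The ratio of Cpa3 to Ms4a2 was 3.06 and 3.31 in Hif1a-null libraries, against 35.8 and 32.8 in Hif1a-intact libraries, and in this ratio the Hif1a-intact libraries lay close together. The ratio to Mcpt8 was 10.5 and 19.8 in Hif1a-null libraries, against 87.7 and 66.6 in Hif1a-intact libraries, and that to Kit 0.350 and 0.416 in Hif1a-null libraries, against 4.10 and 2.30 in Hif1a-intact libraries. The cells had been enriched for the product of Kit. For each of the 4 ratios the 2 groups did not overlap, and the exact two-sided permutation test over libraries gave p = 0.333, the smallest p that 2 against 2 allows. The test therefore cannot pass a threshold of 0.05 in this design. All 4 ratios share Cpa3, whose fall was known when the genes were chosen, so they restate that fall and are no separate evidence.

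**Figure D3:**
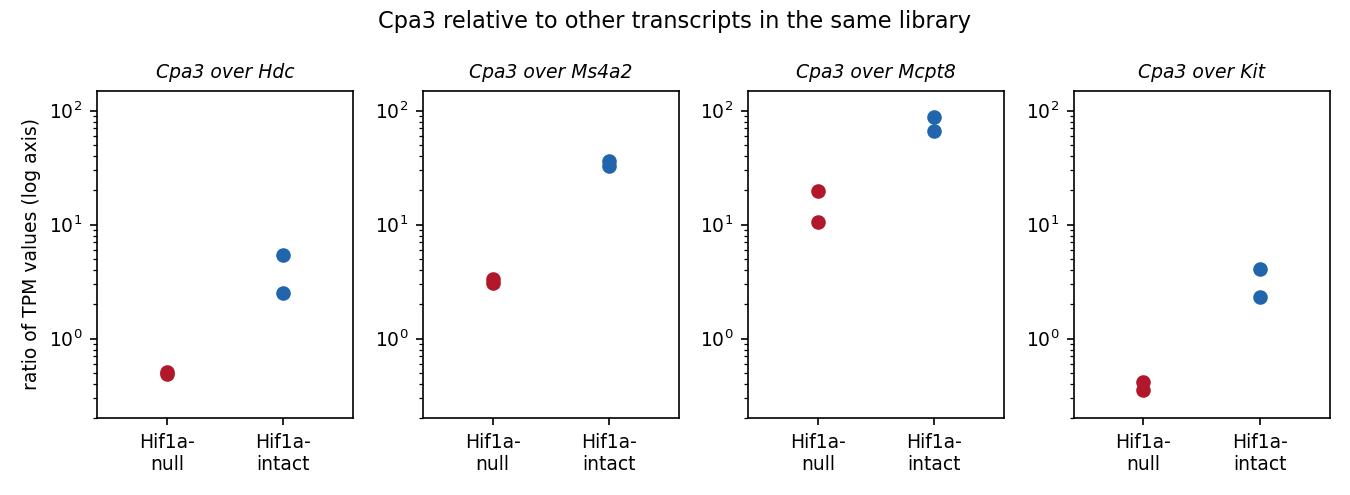
Ratio of Cpa3 to Hdc, Ms4a2, Mcpt8 and Kit within each library (vertical log axis, ratio of TPM values), with the 2 Hif1a-null libraries at left and the 2 Hif1a-intact libraries at right. All 4 ratios are lower in the Hif1a-null libraries, as for Cpa3 to Ms4a2 with 3.06 and 3.31 in Hif1a-null libraries, against 35.8 and 32.8 in Hif1a-intact libraries.

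Marker levels of the cell types were read beside these values. The counts of called markers stand beside 5.25% higher and 2.02% lower among all tested genes. A list with 1 called marker is therefore not read as a change of that cell type. The 9 mast cell markers summed to 243 to 260 TPM in the Hif1a-null libraries, against 539 to 767 TPM in the Hif1a-intact libraries. With Cpa3 left out the sums were 218 and 201 TPM in Hif1a-null libraries, against 241 and 250 TPM in Hif1a-intact libraries, most of it from Kit, which stem and progenitor cells also carry, and Hdc. Of these markers Cma1, Tpsab1 and Tpsb2 were listed at 0 in all libraries, and Mcpt4, the connective tissue mast cell protease, read at most 0.0905 TPM, so the chymase and tryptase markers of tissue mast cells were listed at or near 0 in both groups, unlike Cpa3. The 7 basophil markers summed to 118 to 119 TPM in Hif1a-null libraries, against 141 to 153 TPM in Hif1a-intact libraries, with 1 of 7, Il3ra, called lower and Prss34 listed at 0. Other lineages moved as well: the 9 erythroid markers were all called higher and summed to 6875 to 7327 TPM in Hif1a-null libraries, against 90.0 to 126 TPM in Hif1a-intact libraries, and 5 of 8 megakaryocyte markers (Gp1ba, Gp5, Gp9, Pf4 and Ppbp) were called higher (123 to 142 TPM in Hif1a-null libraries, against 36.3 to 36.4 TPM in Hif1a-intact libraries). Of 12 neutrophil markers 6 (Ltf, Ly6g, Mmp8, Ngp, Retnlg and S100a9) were called higher (40600 to 41759 TPM in Hif1a-null libraries, against 28860 to 32848 TPM in Hif1a-intact libraries). Mpo, Ctsg and Camp went the other way without a call (log2 fold changes -0.41, -0.35 and -0.16). Elane, Prtn3 and S100a8 lay above 0 without a call. Most of each sum came from S100a8, S100a9 and Camp. The neutrophil markers without a call were named after their values were seen. Of 9 eosinophil markers 2 (Ear2 and Prg2) were called higher and 1 (Siglecf) lower (102 to 104 TPM in Hif1a-null libraries, against 58.3 to 70.0 TPM in Hif1a-intact libraries). Of 8 cytotoxic and NK cell markers 5 (Eomes, Gzma, Klrb1c, Klrd1 and Ncr1) were called higher, with sums of 195 to 214 TPM in Hif1a-null libraries, against 188 to 296 TPM in Hif1a-intact libraries. Most of each sum came from Nkg7, which went the other way without a call (log2 fold change -0.76). It read 122 and 144 TPM in Hif1a-null libraries, against 177 and 284 TPM in Hif1a-intact libraries. Nkg7 was named after its values were seen. Of 7 macrophage markers 2 (Adgre1 and Cd68) were called lower (116 to 121 TPM in Hif1a-null libraries, against 146 to 148 TPM in Hif1a-intact libraries). C1qa, C1qb and C1qc went the other way without a call (log2 fold changes 0.69, 0.93 and 0.85). C1qa passed the filter on low values through the Hif1a-null libraries alone and could only come out higher. Csf1r and Vcam1 overlapped between the groups. The macrophage markers without a call were named after their values were seen. Of 8 stem and progenitor markers 1 (Hlf) was called higher (367 to 373 TPM in Hif1a-null libraries, against 415 to 431 TPM in Hif1a-intact libraries). Of the genes called higher, Epor and Klf1 (erythroid), Gp1ba (megakaryocyte), Ear2 (eosinophil) and Eomes, Gzma and Ncr1 (cytotoxic and NK cell) passed the filter on low values through the Hif1a-null libraries alone and could only come out higher. The part of cell make-up in the Cpa3 result was not tested.

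Other mast cell and basophil genes moved in both directions. Of 45 genes listed for these cells apart from the 10, all 45 were in the table, 10 were listed at 0 in all libraries and 28 were tested. Of the 28, 4 were called higher, 6 lower and 18 were not called, beside 5.25% higher and 2.02% lower among all tested genes. The median log2 fold change was -0.06, the same as over all tested genes to 2 decimals. Those that fell included Cd63, a granule membrane protein that reaches the surface when mast cells and basophils degranulate, at 19.1 and 18.7 TPM in the Hif1a-null libraries, against 92.3 and 76.6 TPM in the Hif1a-intact libraries (log2 fold change -2.09, limma adjusted p = 0.00851). Lat2, an adaptor of IgE receptor signalling, read 16.5 and 15.2 TPM in Hif1a-null libraries, against 45.9 and 38.7 TPM in Hif1a-intact libraries (-1.35, adjusted p = 0.0205), although part of its transcript is shared with Rfc2, so its level is uncertain. Itgb7, an integrin subunit that guides mast cell progenitors to the gut, read 11.4 and 11.0 TPM in Hif1a-null libraries, against 22.9 and 29.1 TPM in Hif1a-intact libraries (-1.13, adjusted p = 0.0369). The receptor subunit gene for interleukin-3, Il3ra, a growth signal of basophils, read 2.16 and 1.94 TPM in Hif1a-null libraries, against 4.22 and 4.82 TPM in Hif1a-intact libraries (-0.85, adjusted p = 0.0435). Its call held in 8 of 15 alternative settings, and that of Itgb7 in 11 of 16. In Cd63, Lat2, Itgb7 and Il3ra the groups did not overlap, and both Hif1a-null libraries were the low ones. The same held for 32.3% of all tested genes. The other 2 genes that fell, Gata2 and Cebpa, are given with the transcription factors.

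The genes that rose included receptors and mediators. Il1rl1, the receptor for interleukin-33 on mast cells, basophils and some lymphocytes, measured 6.92 and 8.13 TPM in the Hif1a-null libraries, against 0.736 and 0.574 TPM in the Hif1a-intact libraries (log2 fold change 2.36, limma adjusted p = 0.00706). Both of its Hif1a-intact libraries lay under 1 TPM, so the filter fixed its direction. Alox5, the lipoxygenase that starts leukotriene synthesis in mast cells and other myeloid cells, read 41.3 and 42.4 TPM in Hif1a-null libraries, against 12.4 and 14.7 TPM in Hif1a-intact libraries (1.56, adjusted p = 0.0136). Ccl4, a chemokine released by activated mast cells and many other leukocytes, read 4.22 and 5.23 TPM in Hif1a-null libraries, against 1.62 and 1.64 TPM in Hif1a-intact libraries (1.12, adjusted p = 0.0294), a call that held in 10 of 15 alternative settings. Gata1, the other riser, is given with the factors. Kit, the stem cell factor receptor on which mast cells depend, measured 121 and 102 TPM in the Hif1a-null libraries, against 128 and 126 TPM in the Hif1a-intact libraries (-0.19, adjusted p = 0.517). The cells had been enriched for c-Kit, the product of this gene, so its level is no free measure of mast cells. Serglycin, encoded by Srgn, read 1108 and 1243 TPM in Hif1a-null libraries, against 1222 and 1324 TPM in Hif1a-intact libraries, with overlapping groups. Cd200r3, a receptor of basophils and mast cells, read 14.4 and 16.0 TPM in Hif1a-null libraries, against 17.9 and 19.2 TPM in Hif1a-intact libraries (-0.27, adjusted p = 0.326). Kit, Srgn and Cd200r3 were named after their values were seen. Without Hif1a-null replicate 1 or replicate 2, 0 of the 45 genes were called, where the spread came from the Hif1a-intact pair alone, and without the filter on low values 6 were called.

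Among the transcription factors of mast cells and basophils, Gata1 and Tal1 rose and Gata2 and Cebpa fell. Gata2, which is needed for mast cell and basophil formation as well as for stem cells, measured 6.68 and 6.21 TPM in the Hif1a-null libraries, against 14.6 and 13.6 TPM in the Hif1a-intact libraries (log2 fold change -1.02, limma adjusted p = 0.0267). Gata1, which acts in erythroid, megakaryocyte, eosinophil and mast cells, read 14.7 and 18.6 TPM in Hif1a-null libraries, against 1.73 and 0.689 TPM in Hif1a-intact libraries (3.03, adjusted p = 0.0147). Gata1 was above Gata2 in both Hif1a-null libraries and below it in both Hif1a-intact libraries. Cebpa, a myeloid factor whose loss favours mast cells over basophils in mouse progenitors, read 13.0 and 13.6 TPM in Hif1a-null libraries, against 28.6 and 33.8 TPM in Hif1a-intact libraries (-1.17, adjusted p = 0.0260). Tal1, a partner of the GATA factors in erythroid cells and mast cells, read 12.5 and 12.8 TPM in Hif1a-null libraries, against 2.0 and 1.36 TPM in Hif1a-intact libraries (2.36, adjusted p = 0.00851). Gata1, Gata2 and Cebpa belong to the other mast cell and basophil genes too. Of 21 factors tested, Mitf among them, 2 were called higher and 2 lower, and 17 were not called, beside 5.25% higher and 2.02% lower among all tested genes. Their median log2 fold change was -0.08. The erythroid marker sums above moved in the direction of Gata1 and Tal1, and their part in these values was not tested. Without Hif1a-intact replicate 1, and among protein-coding genes alone, 7 factors were called, and without either Hif1a-null replicate 1 or replicate 2, 0 were.

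**Figure D4:**
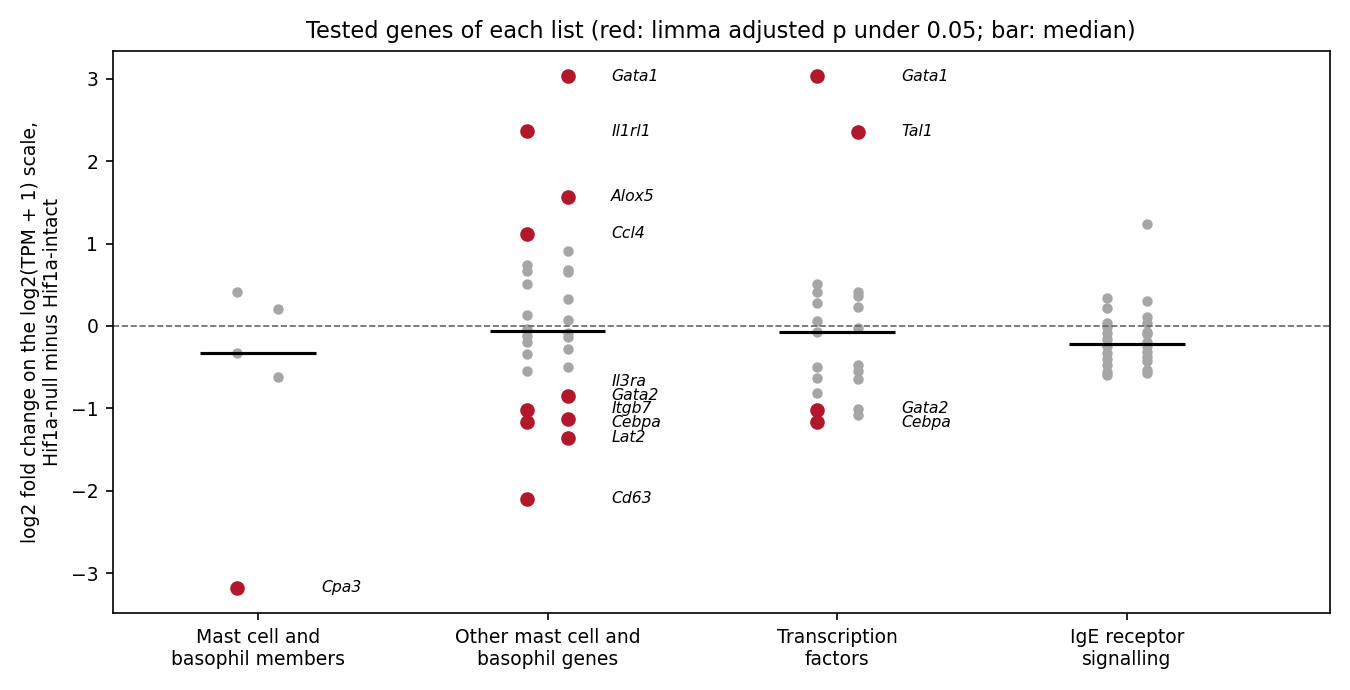
Log2 fold change (vertical axis, Hif1a-null minus Hif1a-intact on the log2(TPM + 1) scale) of every tested gene in 4 lists, with bars at the medians and red points for genes with a limma adjusted p under 0.05. Cpa3 is the one red point among the 10 chosen genes, while the other mast cell and basophil genes have 4 red points above 0 and 6 below.

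Genes that act downstream of the IgE receptor were expressed in both groups and none was called, where 7.27% of all tested genes were. Of 27 such genes 26 were tested, 19 had a log2 fold change below 0 and 7 above, where 57.5% of all tested genes lay below 0. The median was -0.22, beside -0.06 over all tested genes. By unadjusted limma p, 8 of the 26 lay under 0.05, and 23.2% of all tested genes did. Nfatc2 was tested only through the Hif1a-intact libraries and could only come out lower. The 4 with the smallest p were Nfatc1, a calcium-regulated factor, Itpr1, a calcium channel of the endoplasmic reticulum, Plcg2, a phospholipase, and Grb2, an adaptor. Nfatc1 measured 8.12 and 7.93 TPM in the Hif1a-null libraries, against 12.1 and 12.1 TPM in the Hif1a-intact libraries (-0.54, limma adjusted p = 0.0934). Itpr1 read 6.93 and 7.01 TPM in Hif1a-null libraries, against 12.0 and 10.1 TPM in Hif1a-intact libraries, Plcg2 35.9 and 34.9 TPM in Hif1a-null libraries, against 51.1 and 48.2 TPM in Hif1a-intact libraries, and Grb2 157 and 162 TPM in Hif1a-null libraries, against 262 and 214 TPM in Hif1a-intact libraries. In all 4 the groups did not overlap, with fold changes of -0.59, -0.48 and -0.57 for Itpr1, Plcg2 and Grb2 on the log2 scale. These 4 were picked for small p, which favours groups without overlap. Of the 26 tested, 12 lay lower and 3 higher in the Hif1a-null libraries without overlap. Among all tested genes 32.3% lay lower and 22.7% higher without overlap. Without Hif1a-intact replicate 1, 1 gene of the list was called, Fyn, a kinase of the receptor pathway (1.81, limma adjusted p = 0.0272), which read 14.9 and 16.2 TPM in Hif1a-null libraries, against 9.48 and 3.72 TPM in Hif1a-intact libraries and was not called with all libraries (1.23, adjusted p = 0.188). Fyn was named after its values were seen.

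The genes whose values followed Cpa3 most closely over the 4 libraries were not mast cell genes. Likeness was the Euclidean distance between log2(TPM + 1) values, each centred on its own mean over the 4 libraries, so it reflects mostly the size of the fall. The 5 nearest were Oosp2 (distance 0.49), Stag3 (0.60), Ankrd63 (0.62), Polr2k-ps (0.68) and Oosp1 (0.68). Oosp2, Ankrd63 and Polr2k-ps lay under 1 TPM in both Hif1a-null libraries. They passed the filter on low values through the Hif1a-intact libraries alone and could only come out lower. Oosp1 and Oosp2 encode oocyte-secreted proteins and Stag3 a cohesin subunit of meiosis. Oosp2 measured 0.122 and 0.564 TPM in the Hif1a-null libraries, against 10.9 and 6.78 TPM in the Hif1a-intact libraries, with the same Hif1a-intact library on top as for Cpa3. Stag3 read 0.868 and 1.23 TPM in Hif1a-null libraries, against 14.8 and 12.9 TPM in Hif1a-intact libraries. Polr2k-ps is a processed pseudogene whose near-identical copies carry far more TPM than it does, so its values are uncertain.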

How the data were processed

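The authors deposited 1 table of TPM values, 1 column per library and 1 row per Ensembl gene. The tool is kallisto and the build mm10, per the submitters' processing notes. No version, transcript set or strand setting was given in the sources read. The unit was inferred from the values, since columns sum to between 955562 and 963135. Depth is unknown, and TPM are shares, so a large gain in some genes reduces the rest. Symbols and coordinates came from GENCODE vM21 (GRCm38) by Ensembl identifier for 27475 of 28987 genes.

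Groups came from the titles, and replicate numbers only name libraries. The 11909 genes that reached 1 TPM in 2 or more libraries were compared by limma 3.58.1 in R 4.3.3 on log2(TPM + 1), with lmFit and eBayes, two-sided, Benjamini-Hochberg adjustment over all tested genes and a threshold of 0.05. The script was tested on simulated data. Fold changes on this scale understate those of low genes. The exact permutation test used scipy 1.17.1. Near-identical copies of 35 genes were searched with blastn 2.17.0 against annotated transcripts (at least 95% identity over 50% of the shorter transcript and 100 bases). Plots used matplotlib 3.10.9 and Python 3.11.15.

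The 10 genes and the other lists were chosen with earlier results of these data known. Named were the 10 genes, the called genes of each list or, with none called, the 4 of smallest unadjusted p, the 5 genes nearest to Cpa3, and Hif1a, Runx1 and Kmt2a; genes added later are marked as such. Promoter sequences are from RefSeq (GRCm38.p6). Mcptl, 1 of 26 neighbour genes, was not analysed here. The alternatives were other pseudocounts, filters, variance models and scalings, protein-coding genes alone, copies summed, and each library left out. Copies summed means Tpsb2 with Tpsab1 and Gzmc with other granzymes of its cluster. The copies found by blastn were not summed. This setting left the calls at 625 higher and 241 lower, as in the main fit, yet it counts among the alternatives in which a call held.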

Additional observations from a re-analysis of the deposited data

How the results depend on the processing

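Over 16 alternatives the log2 fold change of Cpa3 stayed between -3.60 and -2.74, and its call held in 13. Other filters, other variance models and summed copies could not change its fold change, which was -3.17 in each. Cpa3 had 0 near-identical copies and was not among the genes summed. These settings do not test the size of its fall. The call was lost at -3.17 without a filter on low values (20081 genes tested, adjusted p = 0.0572) and at -3.17 and -3.18 without either Hif1a-null replicate; without each library in turn the values ran from -3.60 to -2.74. Accordingly the count of called genes among the 10 was 0 without the filter, and 0 to 1 with 1 library left out. Hdc, Mcpt8, Mitf and Ms4a2 were called in none of the alternatives in which they were tested (lowest adjusted p = 0.0963 for Mitf and 0.0879 for Ms4a2). The sign turned for 3 genes with no call. With 1 library left out Ms4a2 ran from -0.14 (without Hif1a-intact replicate 2) to 0.54, Ctsg from -0.72 to 0.012 (without Hif1a-intact replicate 1) and Kmt2a from -0.091 to 0.013 (without Hif1a-null replicate 2), and Kmt2a was 0.026 under median-ratio rescaling, against -0.039 with the libraries as deposited. Across all tested genes 625 were called higher and 241 lower. The count of higher genes was 332 with at least 5 TPM required and that of lower genes 138 without the filter. With 1 library left out, higher calls ran from 0 to 731 and lower calls from 0 to 288. Of the other mast cell and basophil genes 6 were called without the filter and 0 to 11 with 1 library left out. Of the transcription factors 7 were called among protein-coding genes and 0 to 7 with 1 library left out, and of the IgE signalling genes 0 to 1. The cause of these differences was not tested, except that leaving out a library leaves fewer samples and that dropping the filter tests more genes. Median-ratio rescaling moved the median of all genes from -0.06 to 0.00. No paired analysis was possible because the labels give the libraries of both groups no shared replicate number. Depth is unknown, so genes listed at 0 cannot be told from genes below detection.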
